A study of Mus musculus with 2 samples.

Results

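Cycling progenitors of the Dlx lineage were described in the newborn mouse telencephalon. They were 327 of the 12846 cells that passed the cell filter in 2 single-cell libraries, 216 in WT and 111 in STING cKO. A cell was chosen on its raw UMIs (unique molecular identifiers, the count of captured RNA molecules). It had at least 500 detected genes and at most 10% of its UMIs in mitochondrial genes. It carried at least 3 UMIs of Mki67, Top2a and Cenpf together, at least 2 of Dlx1, Dlx2, Dlx5 and Gad2 together, none of Pdgfra or Eomes, and fewer than 3 of the microglial genes C1qa, C1qb and C1qc and of the endothelial genes Cldn5, Flt1 and Pecam1. These genes therefore chose the cells, and their levels below are a description.

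The Dlx genes encode homeodomain factors of the ganglionic eminences, the ventral domains of the embryonic telencephalon that produce GABAergic neurons. Progenitors there first express Gsx2, then the Dlx genes, and many go on dividing after leaving the ventricular surface. Medial eminence progenitors express Nkx2-1 and, as they leave the cycle, Lhx6; the lateral eminence and its dorsal part, the source of olfactory bulb interneurons that are still born after birth, express Meis2, Sp8 and Etv1. Cortical glutamatergic progenitors use Emx1, Neurog2 and Eomes in their place.

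The study asked how loss of STING, the cytosolic DNA-sensing adaptor encoded by Tmem173, alters the developing brain. Both libraries came from C57BL/6 mice at P0, labelled as telencephalic tissue, and the study describes them as cerebral cortex dissociated for 10x Genomics capture. The control was labelled WT and the mutant STINGf/f;Nestin-Cre, in which Cre under nestin control deletes the floxed gene in neural progenitors and their progeny. There was 1 library per genotype, the number of animals in each was not given in the sources used here, and no test between genotypes was possible. All intervals are 95% and cover counting error within a library only.

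The libraries held 10715 and 9198 barcodes with 69554624 and 67448785 UMIs, and 6766 and 6080 cells were kept. They also differed in sex-linked RNA, since the chosen WT cells had no Xist UMI and 54 to 163 UMIs of each of 4 Y-linked genes, while the STING cKO cells had 1967 Xist UMIs and none of the 4; genotype and sex cannot be told apart. Tmem173 had no UMI in the chosen cells of either library, so the deletion could not be checked in them. Levels are given as CPM (a gene's UMIs over all UMIs of the summed cells, put on the same total in each library). Taken as 3 UMIs over the total, a count of 0 allows up to 1.30 CPM in WT and 1.90 in STING cKO. Outside the neural lineage Tmem173 had 23 UMIs in WT and 3 in STING cKO in microglia (32.6 and 6.38 CPM). In endothelial cells it had 87 and 14 (21.4 and 9.38 CPM), lower in STING cKO in both. Depth also differed: the chosen cells had a median of 9736 UMIs in WT and 12864 in STING cKO, and a median of 4.87% and 5.54% of UMIs in mitochondrial genes. The libraries shared 8 barcodes among kept cells and 0 among the chosen cells.

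The genes that chose the cells give no check of the label, and their make-up is a description. All 3 cycling genes were detected in 157 of the 216 WT cells and 77 of the 111 STING cKO cells, and 7 and 4 cells passed on Cenpf, a kinetochore gene, alone. At least 2 different genes of the Dlx sum were present in 209 and 109 cells. Of the marker lists of other cell types, the 6 microglial markers summed to 2.61 CPM in WT and 0.634 in STING cKO and the 4 endothelial markers to 3.91 and 1.90, both limited by the choice, and the granulocyte markers, which it did not use, to 0. Oligodendrocyte precursor markers summed to 63.5 and 28.5 CPM, nearly all from Olig2, with 142 UMIs in 43 WT cells and 41 UMIs in 21 STING cKO cells, and astrocyte markers to 53.1 and 35.5 CPM, mostly from Aldh1l1; the part of such cells in the results was not tested. Mural markers summed to 57.8 and 5.07 CPM, and 91 of the 96 WT UMIs of the pericyte gene Rgs5 lay in 1 cell. RNA of glutamatergic neurons, at least 3 UMIs over 5 genes, was found in 12 of 216 WT cells (5.56%) and 16 of 111 STING cKO cells (14.4%). A doublet caller marked 13 and 5 of the chosen cells, 6.02% in WT and 4.505% in STING cKO. Of the other kept cells it marked 2.61% and 2.11%, lower shares in both libraries. Cells just inside the thresholds were few, with 14 and 5 cells at a cycling sum of exactly 3 and 11 and 5 at a Dlx sum of 2, while 24 and 12 cells fell just outside with a cycling sum of 2 and 41 and 23 with a Dlx sum of 1. A Pdgfra UMI, a mark of oligodendrocyte precursors, removed a further 35 and 24 cells.

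The share of cycling Dlx cells was lower in the STING cKO library. They made up 3.19% of kept cells in WT (2.79 to 3.64) and 1.83% in STING cKO (1.504 to 2.19), a difference of -1.37 percentage points (-1.92 to -0.818). The size depended on the cell filter: with a stricter one (at least 1000 genes, at most 5% mitochondrial UMIs) the shares were 7.07% and 2.39%, a difference of -4.69 points, and with no mitochondrial filter 2.23% and 1.34%, a difference of -0.885. All cycling cells together were lower as well, 9.05% and 6.00% of kept cells, a difference of -3.04 points (-3.96 to -2.12). Among cells with at least 2 UMIs of the Dlx sum, 11.4% were cycling Dlx cells in WT (10.0 to 12.9) and 7.13% in STING cKO (5.90 to 8.52). Non-cycling Dlx cells, which had no UMI of the 3 cycling genes, took 23.3% and 22.6% of kept cells, a difference of -0.663 points whose interval, -2.13 to 0.805, included 0. A difference in the share of these non-dividing cells was not detectable at this depth. Cycling cells without any Dlx-side UMI took 2.41% and 2.12% (difference -0.287, -0.813 to 0.241). Of all cycling cells, the Dlx type made up 35.3% in WT and 30.4% in STING cKO, and that interval also included 0 (-11.0 to 1.39).

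**Figure D1:**
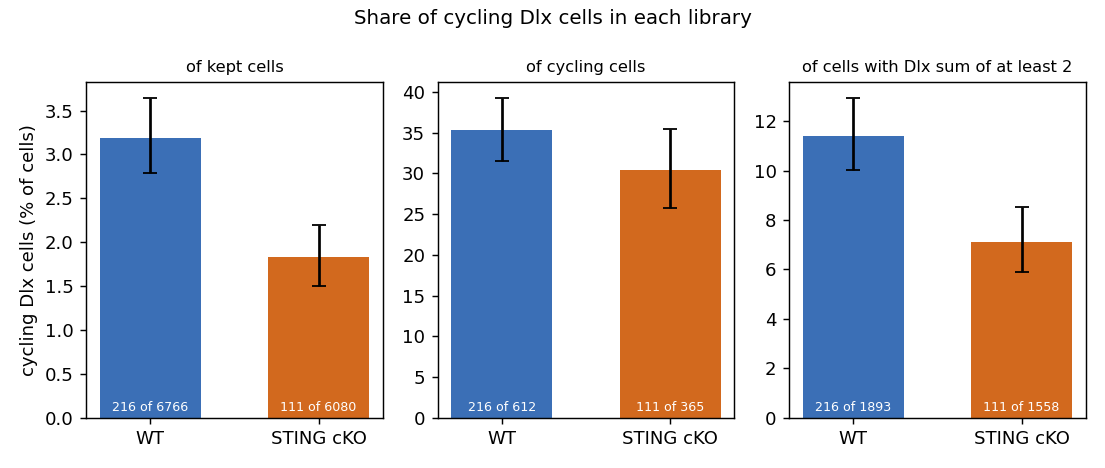
Percent of kept cells, of all cycling cells and of cells with a Dlx sum of at least 2 that were cycling Dlx cells, for WT (blue) and STING cKO (orange), with Clopper-Pearson 95% intervals and cell numbers in the bars. The intervals of the libraries are apart for kept cells (3.19% and 1.83%) and for Dlx cells (11.4% and 7.13%) and overlap for cycling cells.

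The cells carried transcription factors of the lateral eminence, and those of the medial eminence were rare. Meis2 was detected in 213 of 216 WT cells and 105 of 111 STING cKO cells, at 760 and 483 CPM. Sp9, a zinc-finger factor shared by lateral and medial lineages, reached 460 and 478 CPM. Sp8 stood at 124 and 65.3 CPM in 116 and 42 cells, and Etv1, an ETS factor of dopaminergic olfactory interneurons, at 138 and 57.7 CPM in 124 and 42 cells. In contrast, a UMI of Nkx2-1, Lhx6 or Lhx8 was found in only 8 of 216 WT cells (3.70%) and 5 of 111 STING cKO cells (4.50%), and all 27 Nkx2-1 UMIs came from 3 WT cells, 1.39% of them, where 1.09% of WT endothelial cells, which should lack the gene, also had a UMI. With each cell thinned to 2000 UMIs, Meis2 was detected in 71.4% of WT and 56.8% of STING cKO cycling Dlx cells and in 6.70% and 4.62% of endothelial cells, whose median depth before thinning was 16939 and 17652 UMIs. Of the 8 striatal genes, Foxp1 was seen in 111 and 45 cells, Foxp2 in 65 and 11 and Six3 in 31 and 19, while Isl1 was seen in 4 and 1 cells and Ebf1 in 8 and 6. Of the dorsal genes, Emx1 or Emx2 was found in 44 of 216 WT cells (20.4%) and 27 of 111 STING cKO cells (24.3%), while Emx1 was seen in 3.28% and 4.55% of endothelial cells and Emx2 in 2.19% of those in WT and 0 of 66 in STING cKO, which allows a share of up to 4.55%. Neurod2 was seen in 19.9% and 22.5% of cycling Dlx cells and in 20.2% and 10.6% of endothelial cells, which should lack it, and Neurod6 in 20.4% and 23.4% against 25.7% and 24.2%, in endothelial cells of greater median depth. By level, Neurod2 and Neurod6 in WT (26.5 and 31.3 CPM) were not above endothelial cells (25.9 and 33.3), and were read as background, while in STING cKO they were at 68.5 and 34.9 CPM against 18.1 and 15.4.

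These genes were set beside 2 other sets of cells from the same libraries, cycling cells without Dlx-side UMIs (163 WT, 129 STING cKO) and non-cycling Dlx cells (1575 and 1375). Sp8 was at 5.42 and 2.89 CPM in the cycling cells without Dlx, and Sp9 at 3.75 and 0.962. Other lateral genes were present there: Meis2 at 316 and 254 CPM, Etv1 at 44.2 and 34.15 and Tshz1 at 49.99 and 63.0. Sall3 was higher there, at 114 and 67.3 CPM against 68.3 and 34.25 in the cycling Dlx cells. Of the 5 lateral genes, 1 was at least 2-fold higher in the cycling Dlx cells than in that set in both libraries, where 1.05% of all genes were. Meis2 was higher in the non-cycling Dlx cells, 1237 CPM in WT and 652 in STING cKO, than in the cycling ones. Gsx2 ran the other way, at 46.5 and 99.6 CPM in the cycling Dlx cells against 3.12 and 3.01 in the non-cycling Dlx cells. Because the comparison sets were cut from the same libraries by the same genes, these values are a description with no test.

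**Figure D2:**
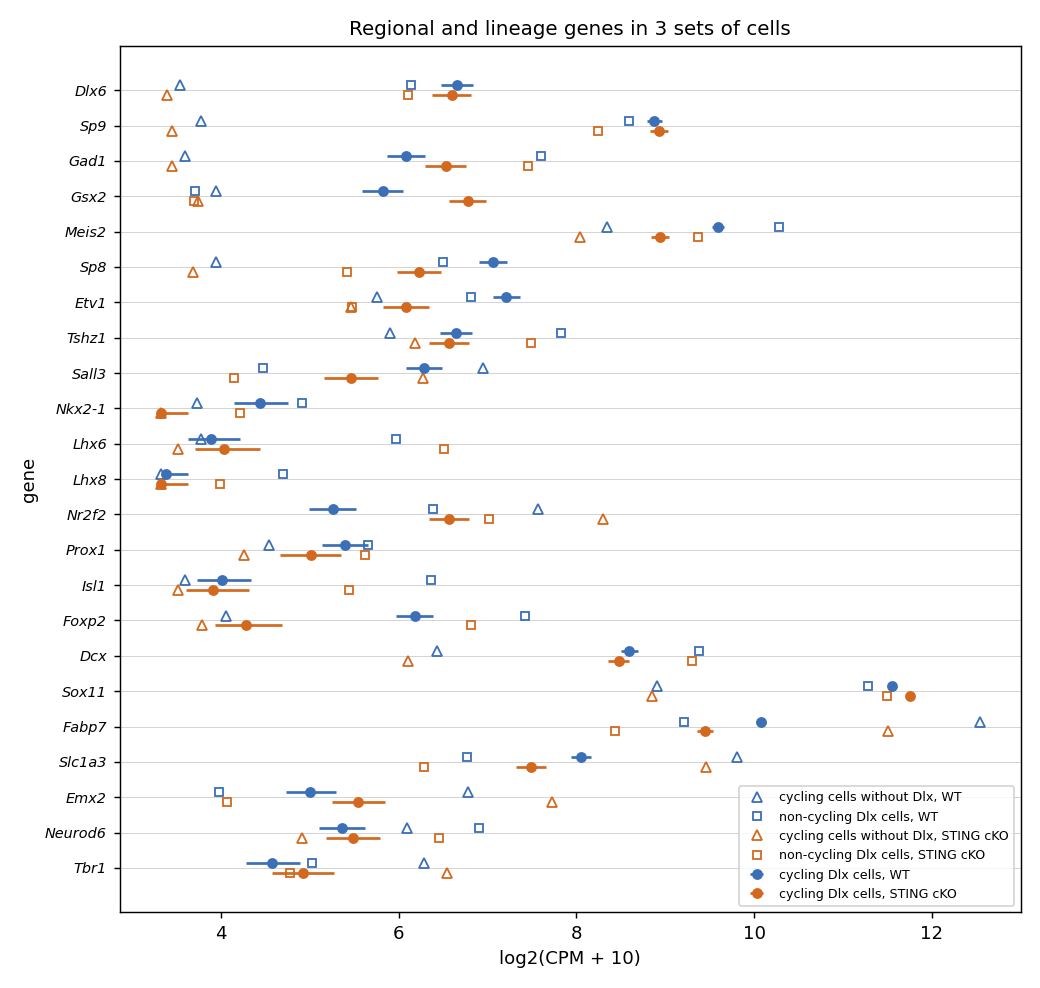
Levels as log2(CPM + 10) of regional and lineage genes in cycling Dlx cells (filled circles, with exact 95% Poisson intervals), cycling cells without Dlx (triangles) and non-cycling Dlx cells (squares), WT in blue and STING cKO in orange. The filled circles of Sp9 (460 and 478 CPM) and Meis2 (760 and 483) lie far to the right of those of Nkx2-1, Lhx6 and Lhx8.

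Compared with other cycling cells, the cycling Dlx cells had 3 of 5 neuroblast genes at least 2-fold higher and 4 of 8 radial glial genes at least 2-fold lower in both libraries. Against cycling cells without Dlx, 106 of 10058 genes were at least 2-fold higher in both libraries (1.05%) and 366 at least 2-fold lower (3.64%), on the scale of CPM plus a pseudocount of 10, which understates the ratios of low genes. Among the neuroblast genes Sox11, Dcx and Cd24a were past 2-fold in both libraries, and Tubb3 and Stmn2 were not: the log2 ratios of Tubb3 were 0.86 in WT and 0.42 in STING cKO, and those of Stmn2, a microtubule regulator of neurons, 0.16 and -0.74. Sox11, an SoxC factor of immature neurons, was at 2998 and 3433 CPM against 471 and 453. Dcx, a microtubule protein of migrating neurons, was at 377 and 347 CPM against 76.7 and 58.7. Insm1, a zinc-finger factor of basal progenitors, was at 682 and 736 against 74.2 and 76.0. The 10 highest ratios also held the lineage genes Dlx6os1, Dlx6 and Bcl11b, the neurexin gene Nrxn3, and Tiam2, Abracl and Nol4. Dlx6 and its antisense gene Dlx6os1 overlap, and whether counting used strand was not given, so reads of the 2 cannot be told apart.

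Of the 8 radial glial genes, 4 were at least 2-fold lower than in the cycling cells without Dlx in both libraries, and none was 2-fold higher, with Sox2 at log2 ratios of 0.18 in WT and -0.25 in STING cKO. Fabp7, a fatty acid binding protein of radial glia, was at 1069 and 689 CPM against 5933 and 2897, and 502 of its 1086 STING cKO UMIs lay in 1 cell. Slc1a3, the glial glutamate transporter, was at 255 and 170 CPM against 884 and 691. Hes5, a Notch target, was at 41.3 and 17.1 CPM against 172 and 72.6. Against non-cycling Dlx cells the summed level had the opposite order: the 8 genes summed to 2726 and 2168 CPM in the cycling Dlx cells and 1222 and 895 in the non-cycling ones, 4 of the 8 were at least 2-fold higher in both libraries, where 4.68% of all genes were, and Sox2 was detected in 209 of 216 WT and 104 of 111 STING cKO cycling Dlx cells. The 10 lowest ratios over cycling cells without Dlx were led by Cxcl12, Nhlh2, Reln and Ndnf, genes of Cajal-Retzius neurons. In the cycling set without Dlx, 25 of the 163 WT cells and 32 of the 129 STING cKO cells had at least 5 Reln UMIs, and 22 and 25 of those had passed on Cenpf alone, with no UMI of Mki67 or Top2a. Among the cycling Dlx cells only 2 WT and 2 STING cKO cells had that much Reln. With glutamatergic and Reln-rich cells left out of both sets, an alternative chosen after seeing the data, several of the 10 changed sign. The log2 ratios were 0.094 for Cxcl12 and 0.62 for Reln in STING cKO and 0.066 for Nhlh2 in WT. They were 0.92 and 0.44 for Snhg11 and 1.30 and 0.51 for Pcp4 in WT and STING cKO. Reln itself chose cells that were left out, mostly from the set without Dlx, so its own change followed from that choice.

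Ccnd2, the D-type cyclin of basal and ventral progenitors, was at 2682 CPM in WT and 3094 in STING cKO, against 546 and 346 in cycling cells without Dlx and 595 and 323 in non-cycling Dlx cells. Ccnd1 was lower than in the cycling set without Dlx, 73.9 and 30.4 CPM against 148 and 94.3. Relative to the other cycling cells, Ccnd2 was thus higher and Ccnd1 lower in both libraries.

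Against non-cycling Dlx cells, 531 of 11341 genes were at least 2-fold higher in both libraries (4.68%) and 400 at least 2-fold lower (3.53%). The higher side held 48 of 51 G2/M genes and 36 of 43 S phase genes, which describes a choice of cells made on 3 cycling genes. The lower side was led by neuropeptide and maturation genes: Sst was at 9.57 and 12.7 CPM against 592 and 321, Npy at 28.7 and 38.1 against 675 and 482, and Tac1, which encodes substance P, at 1.74 and 0 against 92.6 and 77.0. Mef2c, a factor of postmitotic interneurons, was at 138 and 134 CPM against 745 and 813. Crabp1, Maf, Vstm2l, Gucy1a3, Gria1 and Nxph1 completed the 10 lowest. Those Sst, Npy, Maf and Nxph1 transcripts mark interneurons of medial origin, whose factor Lhx6 was at 52.7 and 81.2 CPM in the non-cycling Dlx cells.

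Gsx2, Dcx and Sp8 were each detected in a part of the cycling Dlx cells. Gsx2 was detected in 55 of 216 WT cells and 47 of 111 STING cKO cells, and Dcx in 187 and 95. Of the WT cells with Gsx2, 83.6% also had Dcx, against 87.6% of those without Gsx2, and in STING cKO these shares were 80.9% and 89.1%. Etv1 was found in 71.6% of WT cells with Sp8 and 41.0% of those without, and in STING cKO in 57.1% and 26.1%. These shares were not thinned: the cells ranged from 985 to 35866 UMIs in WT and from 2229 to 47649 in STING cKO, and the part of depth in them was not tested. Olig1 or Olig2, genes of the early glial and ventral lineage, had a UMI in 51 of 216 WT and 23 of 111 STING cKO cells. Olig2 alone was seen in 19.9% and 18.9%, against 3.83% of WT and 0 of 66 STING cKO endothelial cells. After thinning to 2000 UMIs it was seen in 5.63% and 2.70%, against 0.559% and 0 of 65 endothelial cells. That 0 allows up to 4.62%, so these 65 cells cannot decide whether the thinned STING cKO share was above background. Egfr, a receptor of transit-amplifying progenitors, was seen in 17.1% and 22.5% against 4.37% and 4.55% of endothelial cells, and after thinning in 4.23% and 5.41% against 1.12% and 0 of 65.

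Most of the cells held more RNA of the G2/M list than of the S phase list, and the S phase portion was smaller in STING cKO. Over all UMIs of 43 S phase and 51 G2/M genes, the S phase portion was 28.1% in WT (27.7 to 28.5) and 23.5% in STING cKO (23.0 to 24.0), a difference of -4.59 points (-5.22 to -3.96) that takes UMIs as independent. The difference was -7.41 points with the stricter cell filter and -3.00 with a looser gate. With each cell thinned to 2000 UMIs, which left out 3 WT cells and no STING cKO cell, the portions were 28.3% and 24.1%. A thinned cell had a median of 11 S phase and 29 G2/M UMIs in WT and of 8 and 27 in STING cKO. More S phase than G2/M UMIs were found in 44 of 213 WT cells (20.7%, 15.4 to 26.7) and 13 of 111 STING cKO cells (11.7%, 6.39 to 19.2), and the interval of that difference, -8.95 points, ran from -17.0 to 0.183 and included 0. Without thinning, 42 of 216 and 14 of 111 cells had more S phase UMIs. In 16 and 6 of the thinned cells the sums were within 2 UMIs of each other. The cycling cells without Dlx showed the same direction, 20.99% and 8.53%. Mki67, Top2a and Cenpf, which chose the cells, are known to peak in G2 and M phase. Non-cycling Dlx cells also had more RNA of the G2/M list, 2728 and 2457 CPM, than of the S phase list, 917 and 758. The G2/M gene Hn1 was at 1319 and 1313 CPM in the cycling Dlx cells and 1498 and 1292 in the non-cycling ones. An excess of RNA of this list therefore does not by itself place a cell in G2 or M phase.

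**Figure D3:**
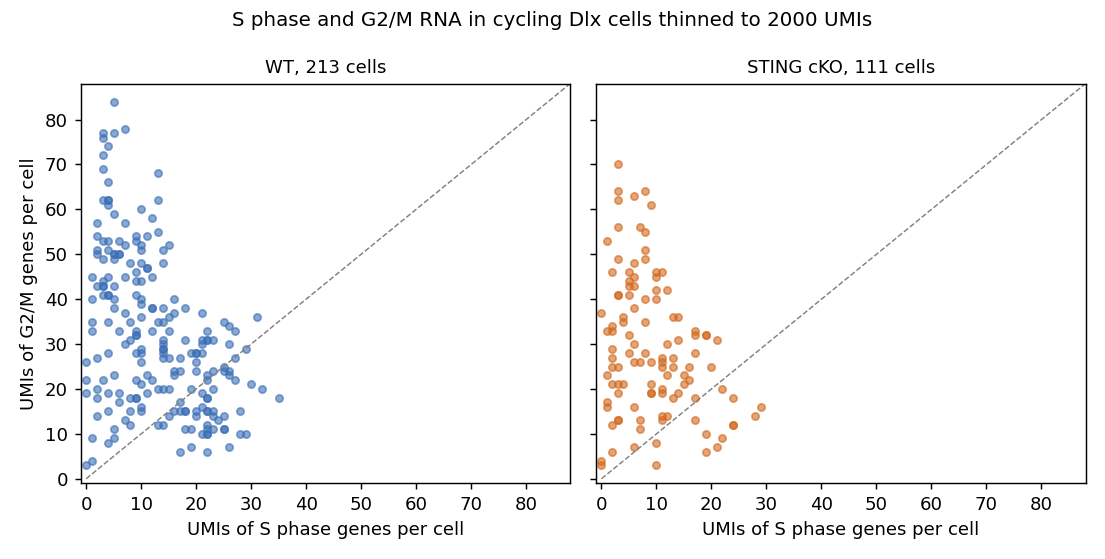
UMIs of S phase genes (horizontal) and G2/M genes (vertical) in each cycling Dlx cell after thinning to 2000 UMIs, WT left and STING cKO right, with the line of equal sums dashed. Most cells lie above the line, and 44 of 213 WT and 13 of 111 STING cKO cells lie below it.

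By gene, 33 of the 43 S phase genes had a lower level in STING cKO, with a median log2 ratio of -0.31, against -0.02 over all 10137 genes tested; 7 of the 43 were at least 2-fold lower, where 2.97% of all genes were, and none was higher, where 0.73% of all genes were. Tyms, thymidylate synthase, was at 230 CPM in WT (211 to 250) and 81.2 in STING cKO (67.7 to 96.5), a log2 ratio of -1.39. Rrm2, the small subunit of ribonucleotide reductase, was at 568 and 256 CPM (-1.12). Pola1, the catalytic subunit of DNA polymerase alpha, was at 43.5 and 7.61 CPM (-1.60), and its primase partner Prim1 at 122 and 51.4 (-1.11). Cdc45 and Gins2, parts of the replicative helicase, had log2 ratios of -1.17 and -1.08. Of the 51 G2/M genes, 24 were above and 27 below 0, with a median of -0.03; the 3 at least 2-fold lower were Ttk, a spindle checkpoint kinase, at 73.5 and 19.7 CPM, Ccnb2, a mitotic cyclin, at 143 and 53.3, and Smc4, a condensin subunit, at 465 and 201. Hmgb2, a chromatin protein of dividing cells, was at 2931 and 2941 CPM. The summed S phase level, 5970 CPM in WT and 4388 in STING cKO in the cycling Dlx cells, was also lower in STING cKO in microglia (2626 and 1460 CPM) and endothelial cells (1816 and 799).

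The promoter windows of these lists are shown for the 3 most abundant genes of each list that hold the motif named for that phase, the CHR element of G2/M genes (TTTGAA) and the E2F sites of S phase genes (TTTCCCGC or TTTGGCGC), searched on both strands of the 250 bases before the RefSeq start (build GRCm38.p6). Capitals mark every match in the stretch printed, those of the opposite strand as read on the strand shown, and in these stretches no CHR match overlaps an E2F match. A CHR match stood in 18 of the 45 G2/M genes with a window (40.0%, of 51 in the list) and in 18.3% of all 27025 genes with windows. An E2F match stood in 1.51% of all genes. Windows were found for only 31 of the 43 S phase genes, and 9 of these 31 held an E2F match (29.0%). The share over the whole S phase list is therefore not known. A match is a description of the letters, not of a bound site.
Hmgb2 (G2/M, chr8:57511773-57511842, plus strand): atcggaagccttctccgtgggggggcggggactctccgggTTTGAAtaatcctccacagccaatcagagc
Anp32e (G2/M, chr3:95929022-95929107, plus strand): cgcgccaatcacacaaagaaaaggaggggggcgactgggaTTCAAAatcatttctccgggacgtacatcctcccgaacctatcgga
Ube2c (G2/M, chr2:164769860-164769928, plus strand): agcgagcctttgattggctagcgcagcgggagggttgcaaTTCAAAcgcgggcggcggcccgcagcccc
Cdca7 (S phase, chr2:72476108-72476195, plus strand): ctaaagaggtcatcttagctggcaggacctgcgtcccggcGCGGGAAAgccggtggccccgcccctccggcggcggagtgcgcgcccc
Mcm7 (S phase, chr5:138172001-138172088, minus strand): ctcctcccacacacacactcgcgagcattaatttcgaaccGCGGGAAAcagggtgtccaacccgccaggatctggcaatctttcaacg
Mcm6 (S phase, chr1:128359706-128359792, minus strand): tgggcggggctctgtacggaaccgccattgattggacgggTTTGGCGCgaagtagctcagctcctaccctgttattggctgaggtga
Beside these sequences, the log2 ratios of STING cKO over WT were 0.00 for Hmgb2, 0.40 for Anp32e and -0.35 for Ube2c, and -0.29 for Cdca7, -0.30 for Mcm7 and -0.43 for Mcm6. The 3 S phase genes shown were lower in STING cKO, while the 3 G2/M genes shown did not share a direction.

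Across all genes of the cycling Dlx cells, 74 of 10137 were at least 2-fold higher in STING cKO (0.73%) and 301 at least 2-fold lower (2.97%). With sex-linked, haemoglobin and mitochondrial genes left out, the lowest ratio was that of Ezh2, the histone methyltransferase of Polycomb repressive complex 2. It had 1118 UMIs in 207 of 216 WT cells and 83 UMIs in 51 of 111 STING cKO cells, 486 CPM (458 to 516) against 52.6 (41.9 to 65.3), a log2 ratio of -2.99. With cells thinned to equal depth, 63.4% of WT and 9.01% of STING cKO cells had an Ezh2 UMI. The other 6 measured members of the complex stayed within 2-fold: Suz12 was at 137 and 159 CPM, Eed at 35.2 and 32.4 and Ezh1 at 6.52 and 7.61.

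Ezh2 was also lower in STING cKO outside the cycling Dlx cells. Its level was 227 CPM in WT and 26.0 in STING cKO in cycling cells without Dlx and 149 and 26.6 in non-cycling Dlx cells. In microglia it was 73.8 and 12.8 CPM (52 and 6 UMIs), and in endothelial cells 66.3 and 2.01 (269 and 3 UMIs). Mrpl14, a mitochondrial ribosomal protein gene, had 122 and 10.8 CPM (-2.67), and 106 and 21.3 in microglia. Coa3, an assembly factor of cytochrome oxidase, had 131 and 22.2 CPM (-2.13), and 131 and 44.7 in microglia. Gtf2i, a general transcription factor gene, had 130 and 23.5 CPM (-2.06), and 66.7 and 23.4 in microglia. Each of these genes was lower in STING cKO in all 5 sets of cells compared, microglia and endothelium included. With 1 library per genotype, genotype and any other difference between the libraries cannot be told apart for them, and the same holds for the other differences between the libraries.

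Of the other 6 of the 10 lowest, Rad50, part of the double-strand break sensor, was at 54.8 CPM in WT (45.7 to 65.2) and 5.07 in STING cKO (2.19 to 10.0), with 126 and 8 UMIs. Xrcc1, the scaffold of single-strand break repair, was at 54.4 CPM (45.3 to 64.8) and 6.98 (3.48 to 12.5). Foxp2, a forkhead factor of striatal and amygdalar neurons, had 144 UMIs in 65 WT cells and 15 in 11 STING cKO cells, 62.6 against 9.51 CPM (-1.90). Shtn1, which encodes shootin, was at 117 and 25.4 CPM (-1.84), and Gucy1a3, a subunit of the nitric oxide receptor, at 42.2 and 4.44 (-1.85). The log2 ratio of Rad50 was -1.55 in cycling cells without Dlx and -1.46 in non-cycling Dlx cells, and its level was 31.1 and 9.38 CPM in endothelial cells and 42.6 and 34.1 in microglia. That of Xrcc1 was -0.58 and -0.82, with 32.0 and 12.1 CPM in endothelial cells and 18.5 and 19.2 in microglia, where it was not lower. Rad50 was thus lower in STING cKO in each set compared, in microglia on 30 and 16 UMIs. Xrcc1 was lower in each set but microglia. On the scale of CPM plus 10 this was by less than 2-fold in the cycling cells without Dlx and the non-cycling Dlx cells. In cycling cells without Dlx the log2 ratios of Foxp2, Shtn1 and Gucy1a3 were -0.27, -0.46 and -0.0050, and in non-cycling Dlx cells -0.61, -1.24 and -1.61. Whether these differences between sets are more than counting error was not tested. Rgs5 completed the 10 lowest, and without the WT cell that held 91 of its 96 UMIs its ratio was -0.04.

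On the higher side, Arrdc4, an arrestin-domain gene, was at 43.1 CPM in WT (34.99 to 52.4) and 178 in STING cKO (158 to 200), a log2 ratio of 1.83. Dyrk2, a protein kinase gene, was at 9.57 and 56.5 CPM (1.76), and Trit1, a tRNA modification enzyme, at 14.8 and 71.0 (1.71). In microglia Arrdc4 was at 18.5 and 93.6 CPM, Dyrk2 at 15.6 and 89.4 and Trit1 at 22.7 and 27.7, and in endothelial cells Arrdc4 was at 10.8 and 67.7 CPM and Trit1 at 10.8 and 15.4. Dyrk2 was at 20.95 and 69.0 CPM in endothelial cells, so Arrdc4 and Dyrk2 were higher in STING cKO in both types. Of the 10 highest genes, 8 were also at least 2-fold higher in STING cKO in cycling cells without Dlx, where 0.737% of all genes were, and 6 in non-cycling Dlx cells, where 0.453% were. Nhlh2 and Calb2 are among the 8, in a set that holds the Reln-rich cells. Of the 10 lowest, 4 and 7 were at least 2-fold lower in these sets, where 3.96% and 2.55% of all genes were. The poorly annotated 1810032O08Rik, 1500011B03Rik and 1700124L16Rik had ratios of 1.76, 1.54 and 1.496; the first and last overlap St6galnac2 and Ankrd53 on the opposite strand. The highest ratio with sex-linked, haemoglobin and mitochondrial genes left out, 4.16, was that of Gm8730, at 28.7 and 680 CPM. Gm8730 is a pseudogene related to the ribosomal gene Rplp0, and its count is uncertain because the copies share reads. It was at 39.7 and 743 CPM in microglia. For each of the neuronal genes Nrgn, Nhlh2 and Calb2, the STING cKO cell richest in it held 166 of 187, 45 of 79 and 74 of 140 UMIs. Without this STING cKO cell of each gene, the log2 ratios were -0.40, 0.68 and 0.61. In WT, 17 of the 23 Nhlh2 UMIs also lay in 1 cell, and leaving out only that cell gave a ratio of 2.25.

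**Figure D4:**
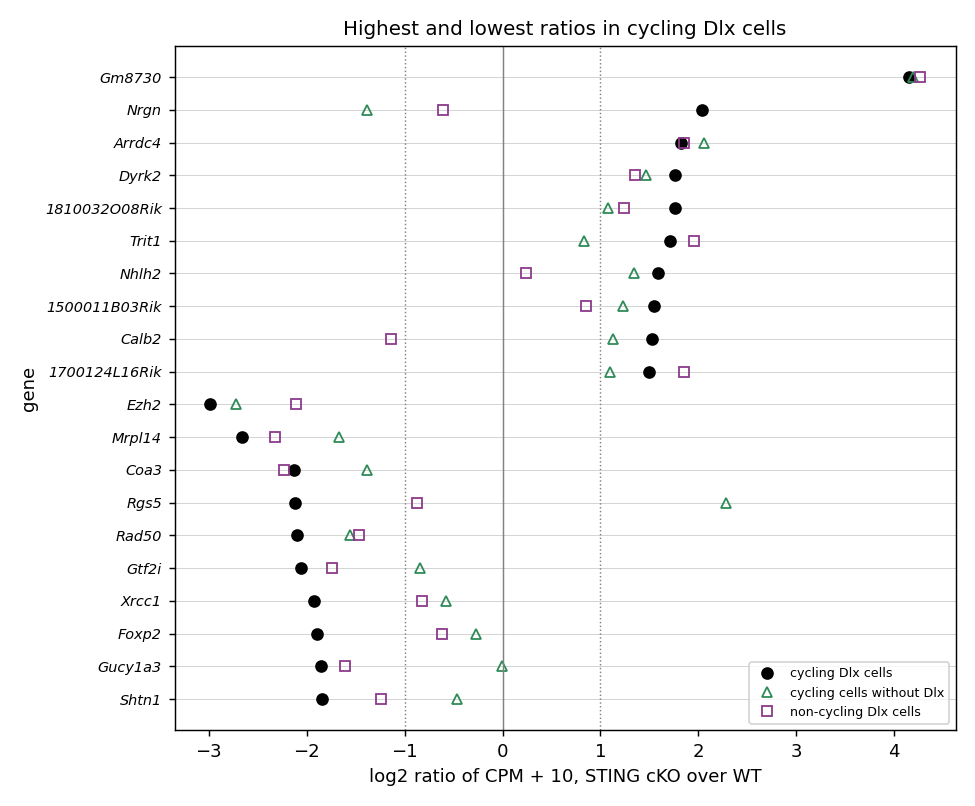
Log2 ratio of CPM + 10 (STING cKO over WT, horizontal) of the 10 highest and 10 lowest genes in cycling Dlx cells (circles), with the same ratio in cycling cells without Dlx (triangles) and non-cycling Dlx cells (squares); dotted lines mark 2-fold. Ezh2 lies at -2.99, -2.72 and -2.11, and Nrgn and Rgs5 lie on opposite sides in the cycling sets.

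Genes of the lateral eminence and olfactory lineage were lower in STING cKO, all 5 below 0 with a median log2 ratio of -0.82 and 1 at least 2-fold lower, where 2.97% of all genes were. Etv1 was at 138 CPM in WT (123 to 154) and 57.7 in STING cKO (46.5 to 70.9), a log2 ratio of -1.13. Sp8 was at 124 (110 to 139) and 65.3 (53.3 to 79.2), a ratio of -0.83, and with cells thinned to equal depth 22.5% of WT and 11.7% of STING cKO cells had an Sp8 UMI. In endothelial cells thinned alike it was 0 of 179 and 0 of 65 cells, which allows up to 1.68% and 4.62%. Meis2 was at 760 (725 to 797) and 483 (449 to 518), a ratio of -0.64. Sall3 was at 68.3 and 34.3 CPM (-0.82) and Tshz1, a factor needed in olfactory bulb interneurons, at 90.5 and 85.0 (-0.08). The non-cycling Dlx cells also had less Sp8 (80.4 and 32.6 CPM), Etv1 (102 and 34.5) and Meis2 (1237 and 652), the same direction as in the cycling ones.

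General GABAergic factors did not share that direction. Of the 8 listed, 4 were above and 4 below 0, with a median of -0.0020 and none past 2-fold. Gsx2 was at 46.5 CPM in WT (38.1 to 56.2) and 99.6 in STING cKO (84.6 to 116), a log2 ratio of 0.95, while Gsx1 was at 12.6 and 2.54 (-0.85). Gad2, which encodes a GABA-synthesising enzyme and was used in the choice of cells, was at 214 and 342 CPM (0.65), and all 4 Dlx-side genes of the choice had positive ratios, Dlx1 0.42, Dlx2 0.14 and Dlx5 0.10. The 4 medial genes measured at 20 UMIs or more had a median of -0.49, which ranged from -1.29 to -0.42 over the alternatives. Among them Sox6 was at 62.6 and 18.4 CPM (-1.36) and Nkx2-1 at 11.7 and 0, the latter from 3 cells. Of the 4 caudal genes, Nr2f2 was at 28.3 and 85.0 CPM (1.31), with 42 of its 134 STING cKO UMIs in 1 cell, and Nr2f1 at 246 and 369 (0.57), while Prox1 was at 32.2 and 22.2 (-0.39) and Htr3a at 7.39 and 4.44 (-0.27).

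Dorsal cortical genes were low and stood somewhat higher in STING cKO, with a median log2 ratio of 0.44 over 9 genes, 7 above 0, and a summed level of 132 and 221 CPM for the 12 listed. Neurod2, a factor of glutamatergic neurons, was the only one past 2-fold, at 26.5 and 68.5 CPM (1.10); endothelial cells had 25.9 and 18.1 CPM, so the WT level was not above background. Cells that held glutamatergic RNA were 5.56% of WT and 14.4% of STING cKO cells. Without these and the Reln-rich cells the median was -0.40. The genes that define glutamatergic RNA here, Neurod2, Neurod6, Tbr1, Slc17a6 and Slc17a7, are themselves in the dorsal list. Leaving out cells rich in them takes dorsal RNA away by construction, so the part of those cells in the difference was not tested. Radial glial genes had a median of -0.31, with 7 of 8 below 0 and none past 2-fold on the same scale. That median was 0.02 with the stricter cell filter and with the stricter gate. Neuroblast genes had a median of 0.08.

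Of the other pathway lists, that of clock and glucocorticoid genes held 3 genes past 2-fold and the others at most 1 each. All counts past 2-fold in these lists are on the scale of CPM plus 10, which understates the ratios of low genes. Of 13 cell cycle regulators only Ccnd1 was, at 73.9 and 30.4 CPM (-1.05). Of 11 measured Notch genes none was, with Hes5 lowest at -0.92, and the receptor gene Notch1 was at 133 and 148 CPM. Of 10 measured DNA damage and p53 target genes, Mdm2, the p53 ubiquitin ligase, was at 48.3 CPM in WT (39.7 to 58.1) and 111 in STING cKO (95.2 to 129), a ratio of 1.05, while the p53 targets Cdkn1a and Bax had 0.40 and -0.03. Of 8 measured STING pathway genes none was past 2-fold on that scale. Tbk1, the kinase downstream of STING, was at 8.70 and 24.1 CPM (0.87) and Irf3, its substrate, at 15.7 and 6.98 (-0.60), both past 2-fold by CPM alone. Of 9 measured clock and glucocorticoid genes, 3 were at least 2-fold higher, where 0.73% of all genes were, Arrdc4 and the period genes Per1 (6.96 and 29.8 CPM) and Per2 (4.35 and 19.7), and none lower. Arrdc4 is also among the 10 highest genes of this same comparison. The list was chosen with earlier results of these data known, so the count is a description. Arrdc4, Per1 and Per2 were also higher in cycling cells without Dlx (16.3 and 99.6, 15.0 and 105, and 3.33 and 12.5 CPM). The summed level of the 11 listed genes was higher in STING cKO in microglia (258 and 568 CPM) and endothelial cells (588 and 2045) as well.

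**Figure D5:**
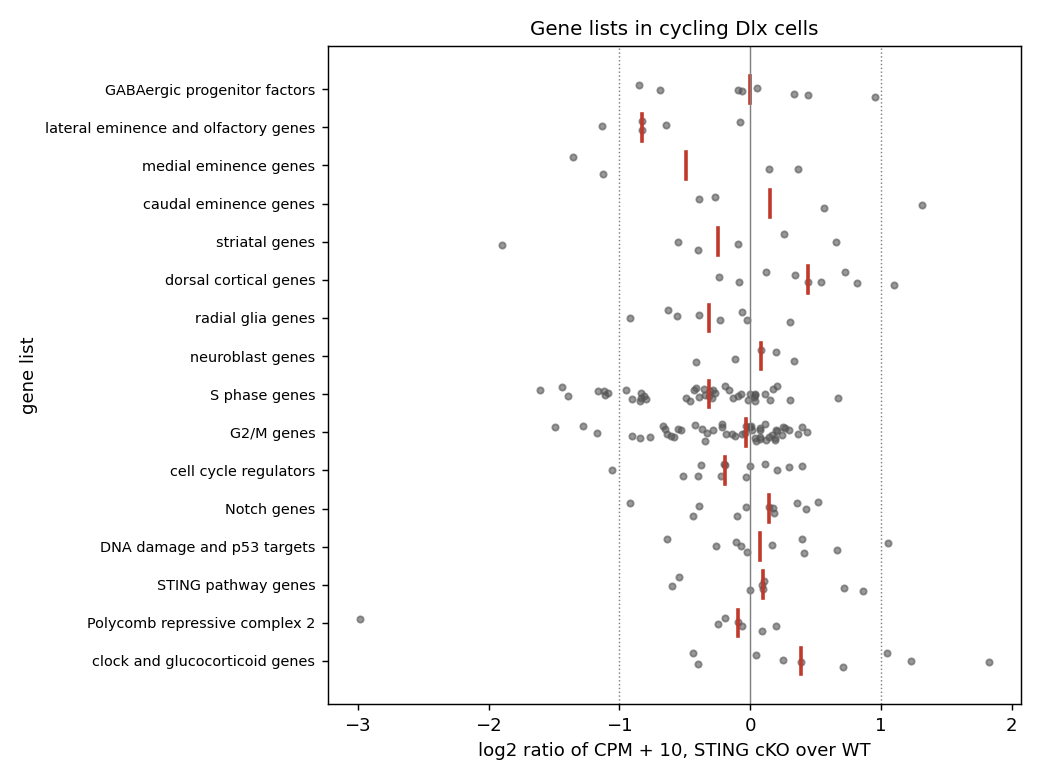
Log2 ratio of CPM + 10 (STING cKO over WT, horizontal) in cycling Dlx cells of each gene with at least 20 UMIs in 16 lists, with the median of each list as a red bar and 2-fold as dotted lines. The medians lie at -0.82 for lateral eminence and olfactory genes, -0.31 for S phase genes and 0.44 for dorsal cortical genes, and Ezh2 stands apart from its complex.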

How the data were processed

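The deposited values are raw UMI counts, as 1 matrix of 27998 genes by barcodes for either library. The submitters' processing notes name STAR, Cell Ranger 2, Seurat and mm9, while per the file headers the matrices were written by Cell Ranger 3.0.1; the annotation, the calling of cells and the use of strand are not given in the sources used here. A combined matrix of both libraries, tables that repeat these counts, and a cluster marker table holding the authors' fold changes and p-values were not used. UMIs were summed over cells and given as CPM with exact Poisson intervals. Shares carry Clopper-Pearson intervals, and the interval of a difference combines both. The level or share that a count of 0 allows was taken as 3 over the total, not as the end of these intervals. Ratios used a pseudocount of 10 CPM and genes with at least 20 UMIs over both libraries. With 1 library per genotype no p-value was computed. Thinning drew 2000 UMIs per cell. Microglia and endothelial cells were kept cells with at least 10 UMIs of the 3 genes of their type that the choice used. Named genes were the 10 highest and 10 lowest of each comparison with at least 50 UMIs, for the genotypes also with intervals apart, with sex-linked, haemoglobin and mitochondrial genes left out, besides the genes of the choice, Tmem173 and the gene lists. The cells and lists were chosen with earlier results of these data known. The ratios and intervals were checked on simulated counts. Alternatives were other cell filters, gates, scalings (TMM, edgeR 4.0.16 in R 4.3.3), count minimums and pseudocounts, and leaving out doublets (Scrublet in scanpy 1.11.5, at an expected rate of 0.08 because its default called none in STING cKO). Of the gene identifiers, those needed for overlaps were matched to GENCODE M21. Values of some genes are not reported here. Python 3.11.15 with numpy 2.4.6, scipy 1.17.1 and pandas 2.3.3 was used.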

Additional observations from a re-analysis of the deposited data

Results flagged for a closer look

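Of the genes with at least 50 UMIs in a library of each cycling set, 3 were at least 2-fold apart between the libraries in opposite directions in cycling Dlx cells and in cycling cells without Dlx, with Poisson intervals apart in each; the difference itself was not tested. Nrgn, a postsynaptic gene of forebrain neurons, had a log2 ratio of STING cKO over WT of 2.04 in cycling Dlx cells and -1.38 in the others, and 1 STING cKO cell held 166 of its 187 UMIs. Rgs5, a pericyte gene, had -2.12 and 2.28, with 91 of 96 WT UMIs in 1 cycling Dlx cell and 99 of 248 STING cKO UMIs in 1 of the others. Vtn, the vitronectin gene, also expressed by pericytes, had -1.60 and 2.39, with 49 of 51 WT UMIs and 53 of 102 STING cKO UMIs in 1 cell each.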

How the results depend on the processing

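Of 178 recomputed main results, 165 stayed within their interval (of counting error, or for list medians a range of the list's own genes, which is no counting error) or, for counts of genes, within 1.5 times. List medians moved within that range: over all alternatives they ran from -1.29 to -0.42 for medial, -0.91 to -0.57 for lateral, -0.069 to 0.57 for caudal, -0.81 to 0.016 for striatal, -0.084 to 0.16 for GABAergic, -0.41 to 0.02 for radial glial, -0.19 to 0.12 for neuroblast and -0.19 to 0.03 for G2/M genes, so that of these 8 only the medial and lateral ones kept their sign. The stricter cell filter (1000 genes, 5% mitochondrial UMIs) left 118 WT and 32 STING cKO cycling Dlx cells: the difference in their share became -4.69 points of kept and -13.0 of cycling cells, 211 genes were at least 2-fold higher and 539 lower, the difference in the S phase portion of UMIs was -7.41 points, and the medians of dorsal cortical and S phase genes were 0.93 and -0.58. With a pseudocount of 1, 401 genes were at least 2-fold higher and 1008 lower. The S phase difference was -6.19 points with the stricter gate, -3.00 with the looser gate and -3.61 without cells holding glutamatergic or Reln RNA. That last alternative was chosen after seeing the data, as was the need for a Mki67 or Top2a UMI. Without the glutamatergic and Reln cells the dorsal median was -0.40, but the glutamatergic genes that chose those cells belong to the dorsal list. The causes were not tested.

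Of 732 values of single genes, 623 stayed within the interval. Among values whose main interval excluded 0, 14 changed sign, and sign changes of the others were not counted. The stricter filter gave log2 ratios of STING cKO over WT of -0.48 for Nrgn, 0.28 for Rgs5 and -0.078 for Ccnd2; leaving out doublets gave 0.0094 for Rgs5, which removes its 1 rich cell; needing Mki67 or Top2a gave -0.25 for Nhlh2. Leaving out glutamatergic and Reln cells gave -0.43 for Nrgn and -1.004 for Calb2. Over cycling cells without Dlx it gave 0.094 for Cxcl12 and 0.62 for Reln in STING cKO and 0.066 for Nhlh2 in WT. It also gave 0.92 and 0.44 for Snhg11 and 1.30 and 0.51 for Pcp4 in WT and STING cKO. The value for Reln followed from a choice made on Reln itself. No paired analysis was possible because there is 1 library per genotype. The combined matrix was not run, since its labels do not name the library of a barcode. With 111 STING cKO cells, genes near 20 UMIs carry wide intervals, and no value covers the spread between animals.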
